A study of Arabidopsis thaliana with 26 samples.

Results

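Transcripts were measured in the shoots of wild type Arabidopsis thaliana (ecotype col-0) that had been severed and left to dry for 2 h in flowing dry air at 20 to 22 °C (drought), and were compared with those of untreated wild type plants (control). The arrays were chosen by their labels alone: 2 drought and 2 control arrays, 4 of the 26 arrays of the series. Because the control plants were intact and no group was cut without being dried, the effects of cutting and of drying cannot be told apart. All plants of these groups grew under constant light at 21 °C on agar medium (100% humidity), and each sample was a pool of 18 plants. Groups set beside the 4 arrays were sf6 control and sf6 drought (2 arrays each), from a chemically mutagenised (EMS) line which the title of the series links to sfr6, a mutation that makes plants sensitive to freezing, and wild type cold (2 arrays, 24 h at 4 °C). The SFR6 transcript itself was not analysed here, so the line label was not checked on it. The labels do not state whether the paired arrays of a group were sown or treated separately. The p-values rest on the spread between the 2 arrays of a group, pooled over all 10 groups of the fit. Besides the groups named above, the fit held sf6 cold and the control and cold groups of the lines labelled sf2 and sf3 (2 arrays each). The mean of the control groups of 4 lines, used below as an alternative, is that of wild type, sf6, sf3 and sf2. Most of the 10 groups are other lines or treatments, and the spread is possibly a technical one. In bulk tissue, fewer cells of a type and less RNA per cell cannot be told apart.

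A shoot that is cut and left in dry air loses turgor within minutes to hours. Plants sense wounding and water loss through calcium and other early signals, which switch on transcription factors and ubiquitin ligases before slower programmes such as abscisic acid responses, protective LEA proteins and changes in cell wall enzymes. Jasmonate is the best known wound hormone, and abscisic acid the best known hormone of water deficit.

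Levels are given as linear probe set intensities, with all arrays scaled to a trimmed mean of 100.01. A change is the difference of group means of log2(intensity + 16), drought minus control, which understates the change of dim genes, and SE is its standard error. Changes were tested with limma, and a probe set is called changed where the adjusted p (Benjamini-Hochberg over 17059 probe sets) is under 0.05. The wild type control arrays correlated with each other at 0.9887 and the drought arrays at 0.9918. On a principal component that held 6.1% of the variance among 20 arrays, the 4 drought arrays of both lines lay between 15.79 and 27.91, and the 2 wild type control arrays at -15.22 and -8.42. On the next component, wild type control replicate 2 (-18.14) lay far from wild type control replicate 1 (-2.86), toward sf3 control replicate 2 (-29.24). Wild type control replicate 1 and sf6 drought replicate 2 carry a repeat mark in their titles and had the lowest scanner background among the arrays of both lines (64.08 and 64.47). Counts without single arrays are given beside the main count for that reason.

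Drying changed 1674 probe sets in wild type, 9.81% of those tested. Of these, 827 were higher (4.85%) and 847 lower (4.97%). Rises were larger than falls: 175 probe sets rose at least 2-fold (1.03%) and 44 fell at least 2-fold (0.258%). The median change over all tested probe sets was -0.026. The total count depended on the arrays kept. It was 665 without control replicate 1, 887 without control replicate 2, 582 without drought replicate 1 and 700 without drought replicate 2, while the 2-fold count of 219 stayed between 177 and 226 under the same omissions.

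The median intensity of the 2-fold rises was 55.4 in wild type control and 207.0 in wild type drought, against 72.2 and 71.8 over all probe sets tested, and these wild type levels are part of what chose them. In sf6 arrays, which entered the choice through the shared spread and filter of the fit alone, the same 175 probe sets had a median of 50.8 in control and 147.8 in drought. The 44 falls had a median of 141.5 in wild type control and 49.1 in drought, and of 100.2 and 61.4 in sf6. Only 79 of the 175 rises and 18 of the 44 falls come from a probe set listed with 1 gene, so most of the strongest changes have no gene name here. Among the unnamed ones, probe set 247543_at was at 43.5 and 77.3 in control and at 669.4 and 673.3 in drought (log2 change 3.21). Probe set 252415_at showed the lowest value of all called changes (-2.43), and its control arrays differed widely, at 411.1 and 1300.0, with 118.0 and 128.6 in drought. In sf6 its change was 0.27, in the other direction.

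The largest rise was that of STZ (AT1G27730, also ZAT10), a C2H2 zinc finger repressor known to be induced by salt, drought, cold and wounding. It was at 50.2 and 74.6 in wild type control and at 975.7 and 899.7 in drought, a log2 change of 3.62 (SE 0.24, limma adjusted p = 1.64e-07). Both drought arrays lay more than 10 times above both control arrays. In sf6 it went from 48.5 and 40.1 to 564.0 and 529.6 (log2 change 3.23).

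ORA47 (AT1G74930), an AP2/ERF activator known to switch on jasmonate synthesis genes, was at 41.0 and 46.2 in control and at 335.3 and 307.7 in drought. Its log2 change was 2.50 (SE 0.13, limma adjusted p = 9.02e-09), the smallest adjusted p of all probe sets. In sf6 its 2 drought arrays, at 214.2 and 273.9, were again far above its control arrays, at 44.0 and 41.8. The other member measured of the list of rapid wound and stress ERF factors, AT1G19210, rose by 0.87 on the log2 scale from 17.7 and 18.1 to 45.6 and 45.9 (limma adjusted p = 0.00399). Both members of that list were therefore higher.

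Of the 15 named genes with the largest rises, 11 are known here by locus only and are given no role. AT4G27280 was at 84.9 and 143.5 in control and at 926.4 and 947.7 in drought (log2 change 2.91, SE 0.37, limma adjusted p = 0.000127). AT1G72920 went from 14.1 and 16.2 to 200.2 and 169.4 (log2 change 2.69), and AT1G72940, a locus close by, from 38.6 and 50.3 to 232.4 and 227.4 (log2 change 2.03). AT3G10930 was at 5.5 and 25.1 in control, so its start level is poorly fixed, and at 178.2 and 136.3 in drought (log2 change 2.53). None of these groups overlapped, as the naming rule asks.

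AT4G29780 (log2 change 2.25), ZCF37 (1.99), AT4G27652 (1.88), AT2G27830 (1.82), AR781 (1.81), AT4G27657 (1.78), AT1G19960 (1.78), AT1G04770 (1.73) and AT4G30650 (1.67) complete the 15. ZCF37 is an example of a gene near the floor in control: it was at 5.4 and 17.1, and at 90.7 and 89.0 in drought. Its change depends on the offset of 16, being 3.08 with an offset of 1 and 1.04 with 64. With the offset of 64, AT1G72920 (1.65), AT3G10930 (1.48), AT4G27652 and AT4G27657 (1.03) also changed over 1.5 times less. Of the 15, 14 kept their call under every one of the 18 alternatives in which they were tested. A dim gene dropped by the filter of an alternative was not tested there. AT1G19960, from 198.2 and 144.9 to 672.5 and 573.9, lost it without control replicate 2 (adjusted p = 0.0534) or drought replicate 1 (adjusted p = 0.0567).

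**Figure D1:**
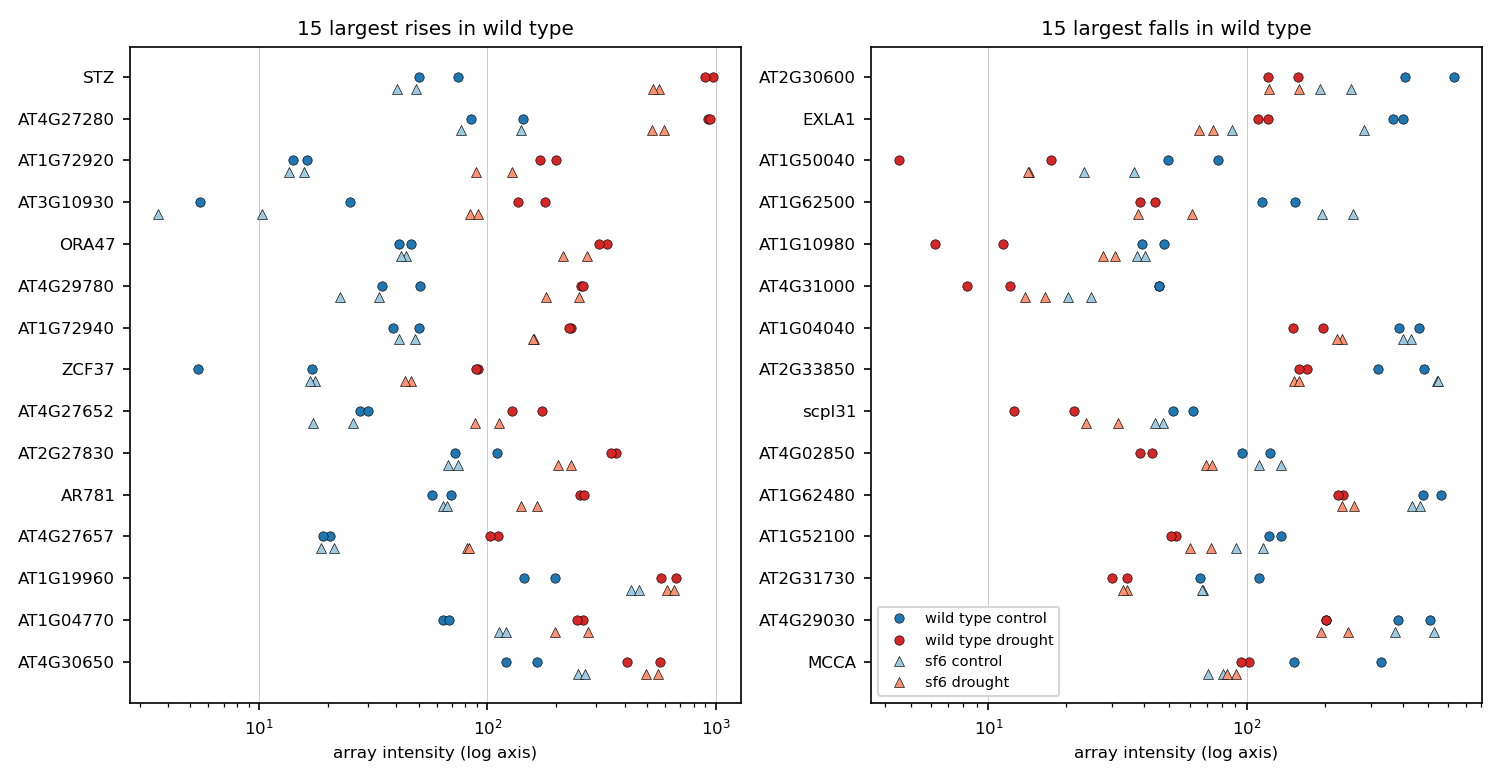
Intensity on each array (log axis) for 15 named genes that rose most and 15 that fell most in wild type after cutting and drying. Circles are wild type and triangles sf6 arrays, with control in blue and drought in red. The drought circles of STZ (975.7 and 899.7) and the control circles (50.2 and 74.6) are the farthest apart. The chosen genes do not overlap between wild type groups by rule, while the sf6 triangles entered the choice through the shared spread and filter of the fit alone.

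Calcium sensors of the calmodulin-like (CML) family were among the genes that rose. Of 7 measured members of a list of touch and calmodulin-like genes, 3 rose and none fell, with a median log2 change of 0.64. The median was lower over 6 CML genes taken by symbol after values were seen (0.39). It was 0.14 over 7 calmodulin and calcium genes found by description. In each of these lists 3 rose and none fell. Among all 9430 named genes, 4.63% were called higher and 4.32% lower. These shares are the background for the counts of the other gene lists and families. The lists were written with earlier results of these data known, so the counts are a description only. CML38 went from 10.1 and 16.2 in control to 62.3 and 70.8 in drought (log2 change 1.51, SE 0.19, limma adjusted p = 0.000114). CML23 went from 13.8 and 11 to 63.2 and 58.2 (log2 change 1.43). With an offset of 1 these changes were 2.29 and 2.21, and with 64 they were 0.76 and 0.71. Both were near the lower end of the scale in control and were also higher in sf6 drought (1.22 and 1.23). CML43 was at 16.5 and 7.6 in control and at 27.4 and 26.8 in drought (log2 change 0.64, limma adjusted p = 0.0255), and its sf6 arrays overlapped, at 24.1 and 34.4 in control and 29.4 and 24.0 in drought. Against the mean of the control groups of 4 lines its change was 0.13 (adjusted p = 0.594). CML41 and CML42 had changes of 0.14 each and were not called.

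U-box ubiquitin ligases (PUB) are enzymes that tag proteins for degradation, and several are known to damp immune and drought responses. Of 7 measured, 4 rose and none fell (median 0.59), where 4.63% and 4.32% of all named genes did. PUB19 went from 29.7 and 50.0 to 97.3 and 97.3 (log2 change 1.04, limma adjusted p = 0.00202). PUB23 went from 17.5 and 23.1 to 44.1 and 44.2 (0.73), PUB24 from 36.8 and 44.9 to 77.7 and 63.7 (0.61), and PUB26 from 55.4 and 44.5 to 82.3 and 83.4 (0.59). The calls of PUB23 and PUB24 were lost in 4 alternatives each and that of PUB26 in 3. With the offset of 64 the 4 changes lay between 0.36 and 0.64. In sf6, PUB19 (1.11) and PUB23 (0.69) were called higher. PUB22 (0.39) and PUB25 (0.45) were not called in wild type.

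Of 3 measured WRKY factors linked to defence and senescence, 2 rose, where 4.63% of all named genes did. WRKY53 was at 13.4 and 24.1 in control and at 44.9 and 39.8 in drought (log2 change 0.76, limma adjusted p = 0.006), and WRKY22 at 41.0 and 49.8 and at 66.9 and 77.8 (0.53, limma adjusted p = 0.0357). WRKY53 lost its call in 3 of the 18 alternatives, changed by 0.36 with the offset of 64, and was not called in sf6 (0.15). WRKY22 lost its call in 8. Among the 6 WRKY factors tested by description these were the called ones, and the median was 0.06. GRX480, a glutaredoxin that acts with TGA factors between the salicylate and jasmonate pathways and the only measured member of the salicylate list, rose by 0.61 (limma adjusted p = 0.0382, call lost in 9 alternatives).

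Jasmonate genes were thinly covered. OPCL1, a CoA ligase that acts in the last steps of jasmonate synthesis, went from 120.9 and 124.7 to 221.6 and 212.9 (log2 change 0.75, SE 0.11, limma adjusted p = 0.000342) and was called in all alternatives. It was 1 of 2 measured synthesis genes. PDF1.4, a plant defensin gene, went from 50.9 and 49.2 to 107.4 and 96.5 (0.84), and was 1 of 2 measured response genes. AT5G05600, the single measured gene of jasmonate breakdown and repression, was at 112.6 and 149.6 in control and 78.6 and 93.4 in drought and was not called (-0.52, limma adjusted p = 0.36).

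Of 5 measured genes of LEA proteins, dehydrins and COR proteins, which protect cells in cold and dry conditions, 1 was called higher, where 4.63% of all named genes were. All 5 were higher at an unadjusted p under 0.05, which 4031 of all 17059 probe sets passed in either direction. COR15B, a small cold-regulated protein of the chloroplast stroma, went from 144.8 and 152.8 to 398.7 and 315.9 (log2 change 1.17, SE 0.34, limma adjusted p = 0.0406), and this call was lost in 9 of 18 alternatives. The other 4 had changes between 0.35 (COR15A) and 0.86 (LEA4-5), all positive and none called. LEA4-5 was at 1.1 and 2.2 in control and at 16.0 and 16.1 in drought. Of 7 LEA and dehydrin genes found by description, 1 was called higher and 3 were higher at an unadjusted p under 0.05. Their changes lay between -0.16 and 1.17, with a median of 0.26. Of 4 measured dehydration and abscisic acid-linked genes none was called by limma, and none had an unadjusted p under 0.05: RD2 (-0.10), OSM34 (-0.03), DI19 (0.23) and HIS1-3 (0.53). The array annotation used here names no probe set for any abscisic acid receptor, clade A PP2C phosphatase, CBF or DREB factor or aquaporin on the lists by locus, so these were not analysed. A single aquaporin was found by description, AQI (0.04, not called).

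Further called genes stand on none of these lists and were chosen one by one after their values were seen. Whether their calls hold under the alternatives was not examined. XERICO, a RING protein known to promote abscisic acid accumulation, went from 100.2 and 125.6 to 185.2 and 166.0 (log2 change 0.58, limma adjusted p = 0.0302). CHX20, a cation exchanger known from guard cells, went from 61.1 and 59.3 to 112.2 and 112.8 (0.75, limma adjusted p = 0.00224). STOMAGEN, a peptide that promotes stomatal development in growing leaves, went from 173.1 and 180.3 to 271.7 and 242.6 (0.50, limma adjusted p = 0.006). The auxin-responsive homeobox gene HAT2 (0.82) and the auxin glucosyltransferase gene IAGLU (0.67) were higher too. CHX20, STOMAGEN, HAT2 and IAGLU were also called in sf6, with changes of 0.79, 0.52, 0.71 and 0.72. The 2 stomatal lineage markers measured, SPCH (25.4 and 15.6 to 12.8 and 8.5) and FMA (63.9 and 66.1 to 72.2 and 91.0), were not called in wild type, nor was any of 3 auxin response genes or of 4 auxin genes found by description. In sf6, 1 of the 2 stomatal lineage markers was called lower (median change of both -0.50), and 1 gene of each auxin list was called higher.

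Of 10 measured autophagy genes, all had positive changes, with a median of 0.25. Of them 2 were called, where 4.63% of all named genes were called higher. ATG8C, one of the ubiquitin-like proteins that coat autophagosomes, went from 224.2 and 216.4 to 323.4 and 317.7 (log2 change 0.51, SE 0.10, limma adjusted p = 0.00314). APG8H went from 330.4 and 387.7 to 496.0 and 504.3 (0.46, limma adjusted p = 0.017, call lost in 5 alternatives). The rises were small, and the other 8 lay between 0.01 and 0.28.

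Of 11 measured mitochondrion-encoded genes, a family chosen after values were seen, 3 were called higher (median 0.36), where 4.63% of all named genes were. cox1, a subunit of cytochrome c oxidase, went from 70.0 and 74.6 to 186.1 and 140.5 (log2 change 1.01, limma adjusted p = 0.00199). nad4 (0.76) and nad6 (0.48), subunits of complex I, followed with calls lost in 6 and 5 alternatives, and cox1 was called in sf6 as well (0.73). A large copy of the mitochondrial genome lies in a nuclear chromosome, and signal from it cannot be told apart on these probe sets.

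Among cell wall genes both directions occurred. Expansins are proteins that loosen the wall. Of 8 measured on the list by locus, 1 rose and 1 fell (median -0.35), where 4.63% and 4.32% of all named genes did. Over the 15 tested by description the same 1 rise and 1 fall were called, and the median was 0.04. EXPA8 went from 249.9 and 177.0 to 716.8 and 596.8 (log2 change 1.56, SE 0.22, limma adjusted p = 0.000271), and it also rose in sf6, by 1.01 (limma adjusted p = 0.0151). The expansin-like gene EXLA1 went the other way, from 367.7 and 401.0 to 110.0 and 120.9 (-1.61, SE 0.37, limma adjusted p = 0.0111). Its call was lost when any 1 of the 4 arrays was left out, with adjusted p between 0.0574 and 0.0835, and its sf6 control arrays differed widely, at 282.8 and 87.5. Of 5 measured xyloglucan-modifying XTH enzymes, 1 fell: XTH16 went from 260.8 and 254.8 to 95.7 and 165.0 (-0.95) and had a change of -0.92 in sf6, called there too. The call of XTH16 was lost without drought replicate 1 (-0.60, adjusted p = 0.116) and without both arrays with a repeat mark (adjusted p = 0.0673). Of 8 XTH genes found by description 2 were lower, the other being XTH20, from 24.1 and 25.9 to 9.3 and 11.9 (-0.63, limma adjusted p = 0.0163, call lost in 6 alternatives). The wall-sensing receptor kinases THE1 (-0.63) and FER (-0.59) and the peptide gene RALFL22 (-0.59) were also lower, 3 of 8 members of a family chosen after values were seen. THE1 lost its call in 6 alternatives and RALFL22 in 11.

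Besides EXLA1, the largest falls among named genes were those of AT2G30600 (-1.77), AT1G50040 (-1.58), AT1G62500 (-1.37), AT1G10980 (-1.27), AT4G31000 (-1.23) and AT1G04040 (-1.22). AT2G30600 was at 407.4 and 631.7 in control and at 120.2 and 157.2 in drought, and its second probe set gave -1.60. AT1G62500 was at 152.8 and 113.8 in control and at 38.7 and 44.1 in drought, and fell in sf6 by 1.90. The serine carboxypeptidase-like gene scpl31 fell by 1.15, from 61.7 and 51.5 to 21.4 and 12.6. The 15th, MCCA, a subunit of the methylcrotonyl-CoA carboxylase of leucine breakdown, was at 152.1 and 329.1 in control and at 102.0 and 95.1 in drought (-1.07). It rested on control replicate 2, without which the change was -0.55 (adjusted p = 0.31), its call was lost in 7 alternatives, and its sf6 arrays showed no such difference (0.17). AT1G50040 also lost its call without control replicate 2 (adjusted p = 0.106) or drought replicate 1 (adjusted p = 0.146). AT1G52100 lost it without control replicate 1 or either drought array (adjusted p between 0.0501 and 0.0652), and with an offset of 1 (0.0718). With the offset of 64 the changes of AT1G10980 (-0.56), AT4G31000 (-0.56) and scpl31 (-0.58) were smaller by over 1.5 times. Against the mean of the control groups of 4 lines, AT2G30600 (-1.12), EXLA1 (-0.94) and MCCA (-0.37) had smaller changes, the last without passing the test.

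Serine carboxypeptidase-like genes, a family chosen after values were seen, moved in both directions. Of 20 measured, 3 rose and 2 fell (median -0.03), where 4.63% and 4.32% of all named genes did. scpl46 rose by 0.83, scpl20 by 0.68 and SCPL49 by 0.65, while SCPL34 fell by 0.50. Tetraspanins, membrane proteins known from secreted vesicles and also a family chosen after values were seen, split too, with 1 rise and 1 fall among 9. TET8 went from 397.4 and 473.5 to 929.9 and 910.7 (log2 change 1.06), and TET10 from 144.8 and 140.8 to 67.1 and 75.8 (-0.86).

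The following genes were chosen one by one after their values were seen. PYK10, the beta-glucosidase stored in the ER bodies of seedling cells, went from 1659.1 and 1579.7 to 950.7 and 886.2 (log2 change -0.81, SE 0.12, limma adjusted p = 0.000435). NAI2, which is needed to form ER bodies, went from 278.9 and 294.6 to 133.6 and 142.6 (-0.97, limma adjusted p = 0.00105). Its call was not examined under the alternatives. Of 4 jacalin-related lectins, some of which bind PYK10, 3 fell, where 4.32% of all named genes did. They were JAL22 (-0.72), JAL34 (-0.70) and JAL33 (-0.55), with calls lost in 5, 7 and 9 alternatives. In sf6, NAI2 was called lower (-0.59), while PYK10 (-0.22) and the 3 lectins were not. PYK10 also stands on the list of root and hypocotyl markers, of which 3 of 11 were measured. Their summed level was 1634.0 to 1702.9 in control and 935.6 to 1009.3 in drought, nearly all of it PYK10, while the others, EXPA7 and EXPA18, stayed between 21.5 and 29.8 on all 4 arrays. The part of residual root or hypocotyl tissue in the PYK10 difference was not tested.

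Of 9 measured nuclear photosynthesis genes none passed the limma test (median -0.16, range -0.28 to 0.14), and 1 was lower at an unadjusted p under 0.05. With 4.63% of all named genes called higher and 4.32% lower, none of 9 is near the background. Of 3 Calvin cycle genes none passed either. The 3 mesophyll markers measured, RCA, LHCB4.2 and PRK, had a summed level of 7860.0 to 8943.5 in control and 7324.1 to 7738.3 in drought, and none was called. Of 8 genes of tetrapyrrole synthesis, the route to chlorophyll and haem and a family chosen after values were seen, all had negative changes and 2 were called, where 4.32% of all named genes were called lower. The list of chlorophyll synthesis genes found by description had 4 tested, with changes from -0.28 to 0.17 and none called. GSA1, which makes the precursor 5-aminolevulinate, went from 672.9 and 649.0 to 370.7 and 384.6 (log2 change -0.78, SE 0.12, limma adjusted p = 0.000694), and HEME1, a uroporphyrinogen decarboxylase, from 457.8 and 400.8 to 260.3 and 281.4 (-0.63, call lost in 7 alternatives).

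Some genes for making ribosomes fell. AT5G14520 (PESCADILLO), needed for ribosomal RNA maturation, went from 255.2 and 291.8 to 167.7 and 169.3 (log2 change -0.65, limma adjusted p = 0.00335), and YAO, a nucleolar protein, from 92.4 and 79.1 to 53.5 and 55.3 (-0.53). They were 2 of 4 measured members of the ribosome biogenesis list, whose median was -0.38, where 4.32% of all named genes fell. Of 11 subunits of RNA polymerases I to V, a family chosen after values were seen, 2 fell, NRPC2 (-0.60) and NRPA2 (-0.41). The median was -0.01. In flavonoid metabolism, 1 of 9 genes fell: DFR, the dihydroflavonol reductase of anthocyanin synthesis, from 127.3 and 110.4 to 52.5 and 61.3 (-0.89, limma adjusted p = 0.03, call lost in 8 alternatives). In sf6 DFR had a change of -1.01, and 3 genes of that list were called lower.

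**Figure D2:**
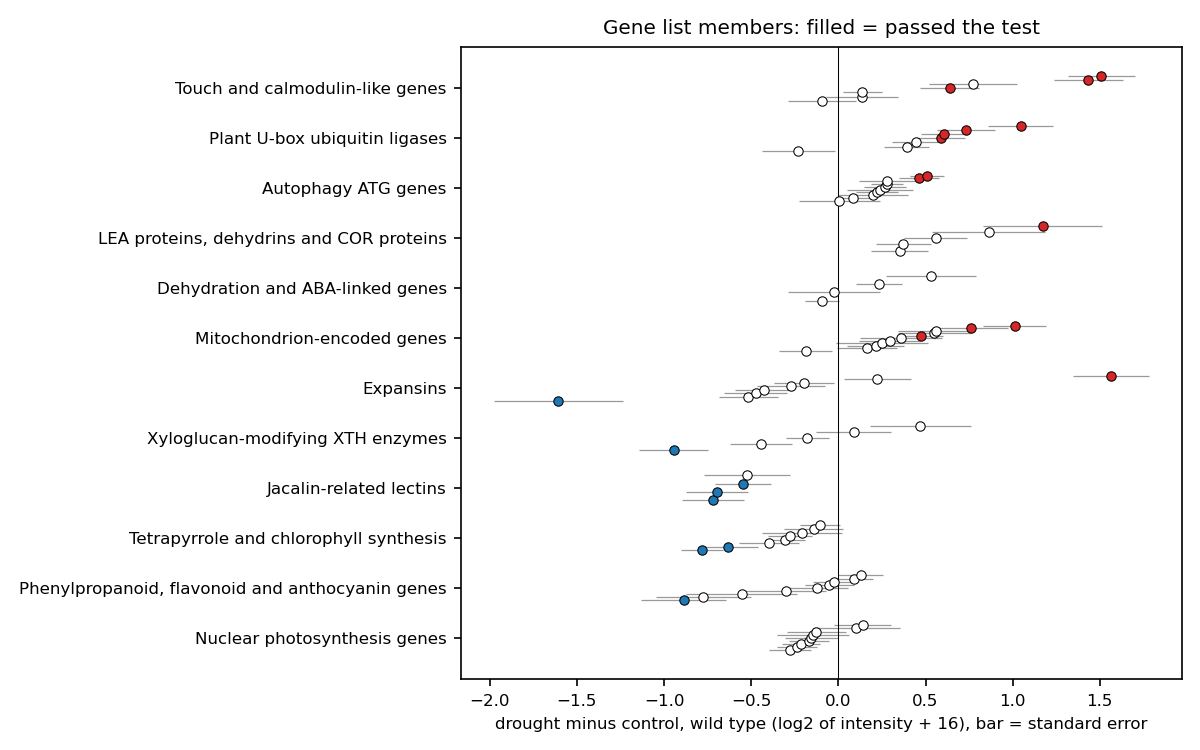
Log2 change in wild type, drought minus control, of each measured member of 12 gene lists, with its standard error. Red and blue points passed the adjusted p of 0.05 (higher and lower), and white points did not. The calmodulin-like genes reach 1.51 (CML38), the expansins extend from -1.61 (EXLA1) to 1.56 (EXPA8), and no photosynthesis gene was called.

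Over the 44 lists written by locus, 108 genes were tested, of which 21 rose and 6 fell, where 4.63% and 4.32% of all named genes did, and 12 lists had no named probe set. These lists were written with earlier results of the series known, so their counts are a description only. Other lists without a call were those of auxin response genes (3 measured), type-A response regulators (2), low-oxygen genes (2), starvation genes (2), and clock genes (1, GI, at -0.56). The single osmolyte (-0.15), cuticular wax (0.39) and reactive oxygen genes (0.15) measured were not called. Among heat shock genes, 1 of 2 rose (AT3G09440, 0.57), from 371.8 and 380.2 to 575.0 and 559.0, but its sf6 control arrays were already at 699.1 and 848.5. Against the mean of the control groups of 4 lines its change was -0.18 (adjusted p = 0.253), and its call was lost in 3 alternatives, that one included. Of 5 glucosinolate genes the transporter gene GTR1 rose by 0.51. Among further families chosen after values were seen, 3 of 17 cytochrome P450 genes, 2 of 11 glutathione transferase genes and 2 of 8 IQD calmodulin-binding genes rose and none fell.

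A few changed genes lay side by side on the chromosomes. Of 3437 pairs of neighbouring genes that were both tested, 12 had both members higher, 11 both lower and 5 opposite calls, where a first member was higher in 151 pairs and lower in 142. The strongest run was AT4G27652 (1.88), AT4G27654 (1.64) and AT4G27657 (1.78), which also had changes of 1.63, 1.19 and 1.45 in sf6. Whether probe sets of these neighbours share target sequence was not tested.

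The sf6 arrays gave a separate set of control and drought samples. In sf6, 670 probe sets were called (3.93%), 366 higher and 304 lower, and 0.604% rose and 0.123% fell at least 2-fold. Of the 175 wild type rises of at least 2-fold, 174 were above 0 in sf6 and 132 were called higher, where 2.15% of all probe sets were called higher. Of the 44 falls, 39 were below 0 and 21 were called lower (1.78% of all). The median of the rises was 1.29 in wild type, where they were chosen, and 1.01 in sf6. The reverse choice gave a similar picture for rises: 103 probe sets that rose at least 2-fold in sf6 had a median of 1.32 there and of 1.44 in wild type, with the wild type change the larger in 64. The 21 falls chosen in sf6 had medians of -1.15 there and -0.81 in wild type, with the same direction in all 21.

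No probe set passed the test of the difference between the responses of the 2 lines (sf6 change minus wild type change). The count was 0 by limma (0.0%), 1099 at an unadjusted p under 0.05, and the smallest adjusted p was 0.244. This does not show that the lines respond alike. For the 15 largest rises the sf6 change had the same direction in all 15 and was called in 14. The exception was AT1G19960, already at 427.6 and 459.8 in sf6 control. Among these 15, the difference with the smallest p was that of ZCF37 (-1.12, SE 0.25, limma adjusted p = 0.346), followed by AR781 (-0.75, SE 0.18, limma adjusted p = 0.411). For the 15 largest falls, 14 had the same direction in sf6 and 7 were called. AT2G30600 was at 251.7 and 191.8 in sf6 control, below wild type control, and its difference between the lines was 1.16 (SE 0.32, limma adjusted p = 0.458).

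**Figure D3:**
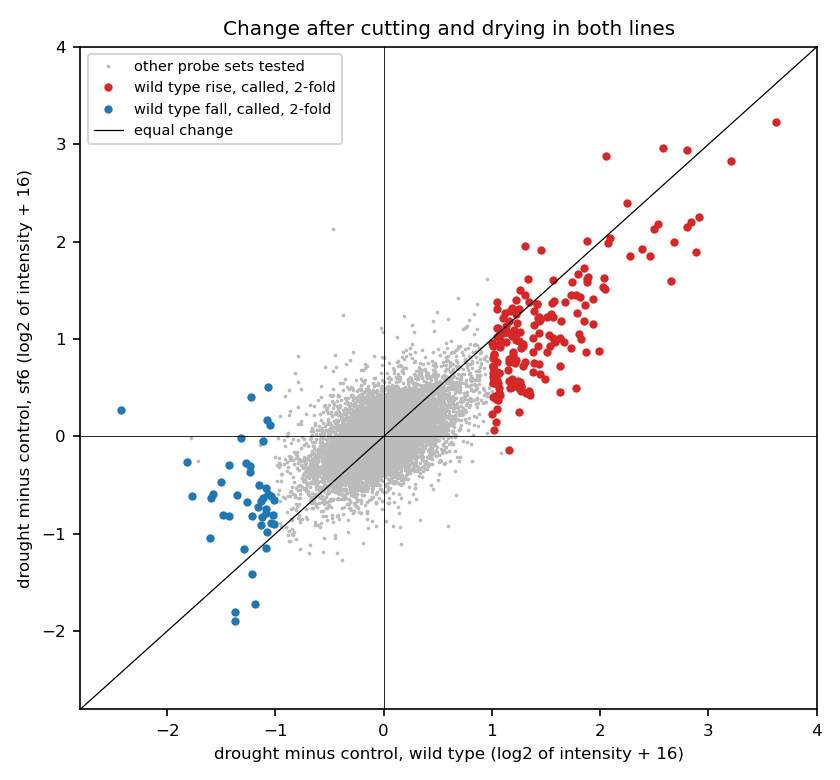
Log2 change, drought minus control, in sf6 (vertical axis) against wild type (horizontal axis) for all 17059 probe sets tested. Red points are the 175 rises and blue points the 44 falls of at least 2-fold called in wild type, and the diagonal marks equal change. Of the red points 174 lie above 0 on the sf6 axis, and of the blue points 39 lie below 0.

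Drought and cold were compared directly in wild type, without the control arrays. Between them 8506 probe sets differed (49.9%), with 26.7% of all tested higher in drought and 23.2% lower, and 7.57% and 6.5% by at least 2-fold. Of the 827 probe sets that rose on drying, 542 were higher in drought than in cold and 107 lower. Of the 847 that fell, 116 were higher in drought and 529 lower. Both sets were chosen on the same 2 drought arrays that enter this comparison, which favours these directions, so the counts are a description only. The treatments differ in kind, length (2 h and 24 h) and in the cutting of the shoots, and these cannot be told apart.

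EXPA8 showed the largest difference among genes called on drying: drought arrays were at 716.8 and 596.8 and cold arrays at 8.4 and 4.2, a log2 difference of 4.92 (SE 0.22, limma adjusted p = 3.56e-11). AT1G23390 was at 1219.2 and 1236.0 in drought and at 88.4 and 37.3 in cold (4.06). AT4G33666 (3.67), AT1G19960 (3.33), AT5G14120 (3.28) and AT4G27280 (3.23) followed. AT5G14120 was lower in drought (1113.3 and 1045.2) than in control (1567.3 and 1578.2), and lower again in cold (100.5 and 93.5).

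On the other side, AT1G51090 was at 29.9 and 27.7 in drought and at 1060.7 and 1080.4 in cold (log2 difference -4.60, limma adjusted p = 2.3e-14). AT5G62210 (-4.0), COR15B (-3.01), AT1G64890 (-2.83), AT1G67360 (-2.76) and AT3G18600 (-2.63) followed. COR15B was at 398.7 and 315.9 in drought and at 2846.4 and 3115.9 in cold. AT1G51090 and COR15B had positive drying changes of 0.44 and 1.17, which fell short of their cold levels by far, while AT5G62210 and AT3G18600 were lower in drought than in control (-0.84 and -0.54). The drying calls of AT1G51090 were lost in 7 alternatives and those of AT5G62210 and AT1G23390 in 5 each, while all 12 differences between drought and cold kept their call.

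Against the same control arrays, STZ had a change of 3.62 in drought and 1.14 in cold, and ORA47 of 2.50 in drought and -0.18 in cold. AT4G30650 was the single gene among the 15 largest rises that was lower in drought (571.4 and 407.0) than in cold (2373.9 and 2476.6). Of the 15 largest falls, 14 were also called lower in cold, where 4505 of all 17059 probe sets were. Of the 15 largest rises, 5 were called higher in cold and 3 lower, where 3539 of all probe sets were called higher. Both comparisons share the control arrays, so these values are set side by side only.

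**Figure D4:**
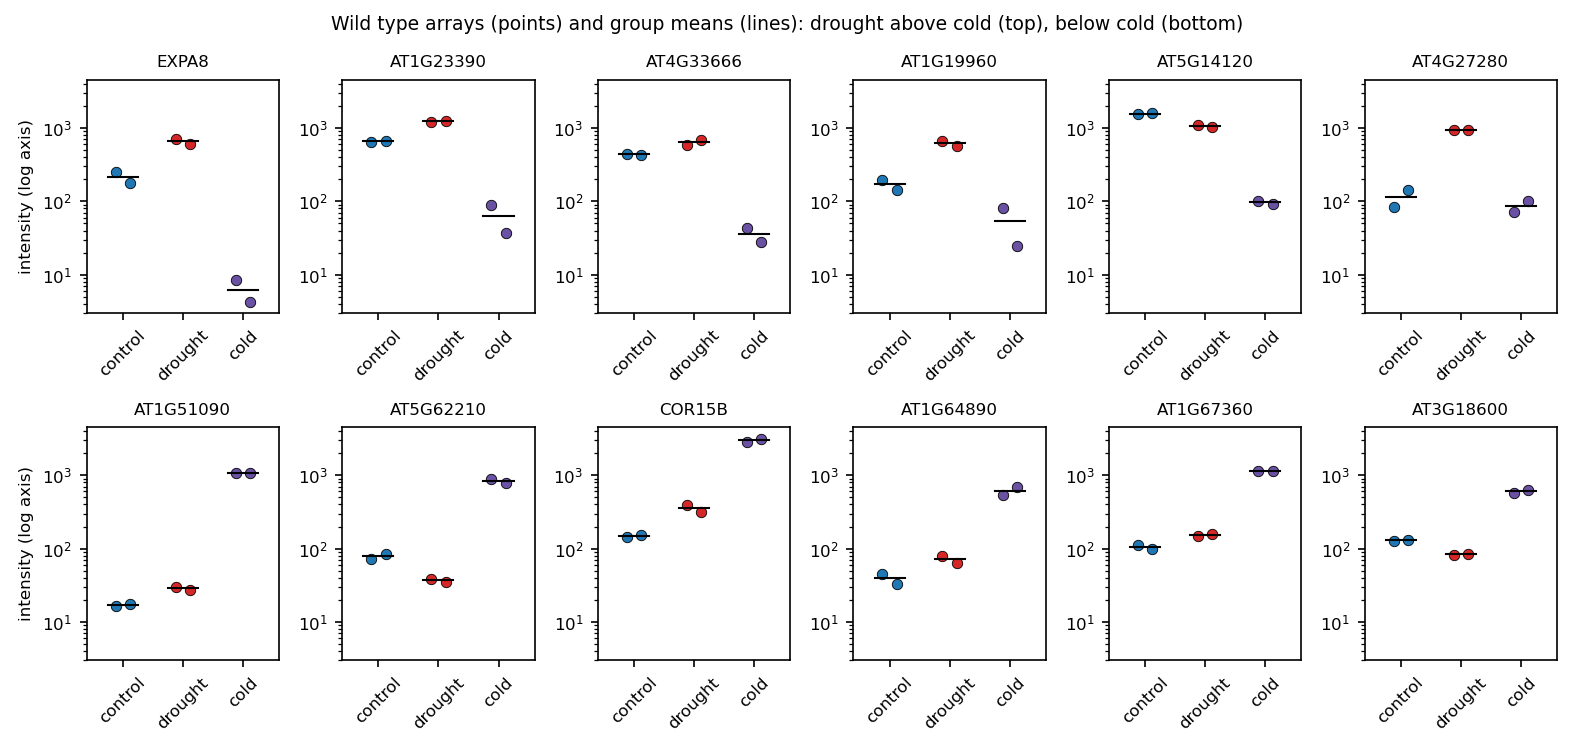
Intensity (log axis) on each wild type array in control, drought and cold for 6 genes with the largest drought above cold difference and 6 with the largest difference below, among genes called on drying. Points are arrays and lines are group means. EXPA8 lies above control in drought and far below it in cold (8.4 and 4.2), and COR15B reaches 2846.4 and 3115.9 in cold.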

How the data were processed

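The authors deposited 1 intensity per probe set and array, on a linear scale, for Affymetrix ATH1 arrays (1 colour). The summary software and annotation build are not given in these sources. The deposited intensity values of all 26 arrays share a trimmed mean of 100.01 (2% at each end). Control probe sets (AFFX) were left out. From log2(intensity + 16), limma 3.58.1 in R 4.3.3 was fitted to 20 arrays in 10 groups (10 residual degrees of freedom, 6.54 prior, intensity trend). Probe sets whose mean lay below the 25th percentile were dropped. Of 22810 probe sets, 13513 are listed with 1 gene. Symbols were updated through RefSeq gene IDs. The procedure was tested on simulated data for the wild type drying comparison: of 100 probe sets changed by 1 on the log2 scale 86 were recovered, and of 100 changed by 2, 97, with 8 false calls among 17059. Named genes are the 15 largest rises and falls past the threshold without overlap between groups, per list the 4 members (or fewer) lowest in adjusted p plus members moving the other way, and the 6 genes each way that differ most between drought and cold. Members and lists were chosen with earlier results of these data known. The samples were not treated as paired by replicate number, and the labels do not say whether they were. Same-numbered control and drought arrays of wild type deviated together at r = -0.046, which cannot decide this. No promoter or protein sequence was used here. Alternatives changed the offset, filter, scaling, controls, block and single arrays.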

Additional observations from a re-analysis of the deposited data

How the results depend on the processing

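In some of the 18 alternatives the filter could drop a dim gene, which was then not tested and counts here as no loss. Of 93 named genes, 39 kept their call in wild type drying under every alternative that tested them. The other 54 lost it under at least 1, most often when drought replicate 1 was left out (49). The direction held for all named genes where tested, except AT3G09440. It was at -0.18 (adjusted p = 0.253) against the mean of the 4 control groups. The count of 1674 probe sets was 1591 with a replicate block, 969 with the repeat mark as a covariate, 562 without both arrays so marked, 2687 with array weights, 2685 against the mean of the 4 control groups, and 582 to 887 with 1 array left out. With arrays scaled to their medians it was 1513 (873 higher, 640 lower). The 2-fold count of 219 was 347 with an offset of 1, 88 with 64, and 177 to 226 with 1 array left out. The sf6 count of 670 was 649 with a replicate block, 1385 with only the compared groups, 235 without both repeat arrays and 144 to 227 with 1 array left out. Its 2-fold count of 124 was 210 with an offset of 1 and 45 with 64. The difference between lines was 0 with a replicate block and 0 to 1 with 1 array left out. The 2-fold count between drought and cold, 2400, was 1280 with an offset of 64, and the count of all calls, 8506, was 8472 with a replicate block and 7003 to 8633 over all alternatives. The 27 called genes of the lists by locus were 27 with a replicate block, 14 without both repeat arrays, and 12 to 22 with 1 array left out. The causes of these shifts were not tested. Where an array was left out, the smaller number of arrays and the particular array cannot be told apart. Where an array was left out, its partner was taken to vary like the other groups. The replicate numbers are not shown to mark shared batches, and the block changed 1 call among the named genes. The planned promoter search was not run because no promoter sequences were at hand. With 2 arrays in a group, small changes and dim genes are the least certain.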

Other observations

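The series holds 6 further arrays of compost-grown plants, with the codes 00f, 03f and 24f and no stated genotype. Their labels give a growth temperature of 4 °C, a humidity of 70% and a cycle of light and dark, against 21 °C, 100% and constant light for the arrays above. They were set beside the drying genes as values only. Of the 15 largest rises, 9 had both 03f arrays above both 00f arrays and 4 had both below, where 3451 of 17059 probe sets lay above and 8080 below. STZ was at 208.0 and 170.8 in 00f, at 1059.0 and 1150.4 in 03f and at 162.9 and 152.4 in 24f. AT4G29780 was at 62.1 and 46.9, then 757.1 and 827.4, then 97.0 and 94.0. AT4G27652 and AR781 followed the same course, at 336.6 and 368.6 and at 348.3 and 362.0 in 03f. AT1G72920, AT1G72940, AT1G19960 and AT1G04770 were lower in 03f than in 00f. AT1G72920, for example, was at 76.1 and 59.1 in 00f and at 19.9 and 22.0 in 03f. Of the 15 largest falls, 3 had both 03f arrays above both 00f arrays and 6 had both below. EXLA1, among those above, was at 94.6 and 101.4 in 00f and at 1293.8 and 1199.6 in 03f. ORA47, with 335.3 and 307.7 in wild type drought, reached 76.0 and 80.4 in 03f.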
